A study of Mus musculus with 8 samples.

Results

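The genes described here carry glucose through glycolysis or belong to the transcriptional response to low oxygen. They were chosen by name from a list of 34 genes: 17 glycolytic enzymes and their regulators, 4 genes of transport and branch points (the importer Slc2a1, the exporter Slc16a3, Pdk1 and Gbe1), 10 hypoxia response genes and 3 genes of oxygen sensing (Hif1a, Egln1 and Egln3). Of these, 33 were among the 22237 genes on the arrays and all 33 were tested, with no filter on low values. Pgam1 was not analysed here, and Car9 lay below a log2 intensity of 6 in all 4 groups, a level set here close to the array medians of 6.21 to 6.32.

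Total RNA of primary mouse glomerular cells had been hybridised to 8 Affymetrix Mouse Gene 1.0 ST arrays in 4 groups of 2: podocytes in EGM-MV, podocytes in RPMI, PECs in EGM-MV and PECs in RPMI. Podocytes, which cover the glomerular capillaries, came from decapsulated glomeruli of female Pod-rtTA/LC1/R26R mice, and PECs, the parietal epithelial cells on the inside of Bowman's capsule, from capsulated glomeruli of female PEC-rtTA/LC1/R26R mice. All mice had a mixed background of 75% Sv129 and received doxycycline, which switched on Cre through rtTA and thereby a permanent lacZ tag. In the PEC line a fragment of the rabbit podocalyxin promoter drove rtTA. The mice were adult. All cells had first grown out of glomeruli in EGM-MV for 7 to 14 days, were stained for beta-galactosidase with 2 mM FDG, sorted, and measured after repeated passages. EGM-MV is a medium with growth factors for microvascular endothelial cells, RPMI a basal medium, and EGM-MV also held more serum. Each cell type had 2 independent cultures, each kept in both media. Differences between the cell types cannot be told apart from those between the mouse lines and between glomeruli with and without capsule, and medium effects include the serum difference. Because the deposited data name genes by Ensembl ID alone and the reference table held 0 such IDs, the lists of podocyte, PEC and other cell type markers could not be looked up, and the cell type labels were not checked.

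Glycolysis splits glucose into pyruvate and yields ATP without oxygen. Hexokinases trap glucose in the cell, phosphofructokinases commit it to the pathway, and lactate dehydrogenase turns the resulting pyruvate into lactate, which leaves through monocarboxylate transporters. Many of these genes are targets of hypoxia-inducible factor (HIF), whose alpha subunit is hydroxylated by prolyl hydroxylases (the Egln proteins) and degraded when oxygen is present. HIF also induces genes outside glycolysis that act on mitochondria, collagen, chromatin and blood vessels, and the sequence it recognises has the core ACGTG or GCGTG. In cultured cells glycolysis is in general the main fate of glucose, also with oxygen present.

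The 300 bases around the transcription start (250 before and 50 after) are shown for 5 genes on which the results below turn. Slc16a3, P4ha2 and Aldoc are those with a window whose response to the medium differed between cell types. Pgk1 and Tpi1 are enzymes of the glycolytic trunk that differed between cell types in opposite directions. The sequences are those of RefSeq for GRCm38.p6, read 5′ to 3′ on the strand of the gene, and capitals mark ACGTG or GCGTG on either strand (CACGT or CACGC where the match lies on the other strand). The Slc16a3 window is chr11:120948817-120949116 (plus strand) and held 2 ACGTG matches. The P4ha2 window, chr11:54100674-54100973 (plus strand), held 2 ACGTG and 2 GCGTG matches. The upstream one of the Aldoc windows, chr11:78322823-78323122 (plus strand), held 1 ACGTG and 2 GCGTG matches. The Pgk1 window, chrX:106186850-106187149 (plus strand), held 2 ACGTG matches, and the Tpi1 window, chr6:124814109-124814408 (minus strand), held 0.
Slc16a3: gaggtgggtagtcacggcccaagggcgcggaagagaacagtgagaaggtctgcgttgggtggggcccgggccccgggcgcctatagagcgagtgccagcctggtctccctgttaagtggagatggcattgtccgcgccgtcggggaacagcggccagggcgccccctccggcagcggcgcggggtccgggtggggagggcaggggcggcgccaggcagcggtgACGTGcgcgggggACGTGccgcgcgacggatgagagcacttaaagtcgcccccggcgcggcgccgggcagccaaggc
P4ha2: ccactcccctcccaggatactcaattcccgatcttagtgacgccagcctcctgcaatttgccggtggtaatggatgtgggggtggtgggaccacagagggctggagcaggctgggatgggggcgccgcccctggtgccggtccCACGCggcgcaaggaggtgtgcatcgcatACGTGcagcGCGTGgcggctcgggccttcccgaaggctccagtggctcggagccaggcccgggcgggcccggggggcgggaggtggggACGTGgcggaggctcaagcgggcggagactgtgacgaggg
Aldoc: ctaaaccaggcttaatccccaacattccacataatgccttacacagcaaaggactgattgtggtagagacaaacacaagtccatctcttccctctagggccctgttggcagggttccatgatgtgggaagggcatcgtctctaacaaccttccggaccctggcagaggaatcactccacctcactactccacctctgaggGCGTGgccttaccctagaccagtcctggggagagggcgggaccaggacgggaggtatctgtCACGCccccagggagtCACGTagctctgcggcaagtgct
Pgk1: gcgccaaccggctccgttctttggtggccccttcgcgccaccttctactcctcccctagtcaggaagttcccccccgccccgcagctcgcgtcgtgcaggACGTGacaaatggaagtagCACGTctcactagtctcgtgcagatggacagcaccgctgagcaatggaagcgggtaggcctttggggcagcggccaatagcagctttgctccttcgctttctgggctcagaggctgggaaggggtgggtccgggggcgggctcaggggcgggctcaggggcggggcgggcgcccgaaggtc
Tpi1: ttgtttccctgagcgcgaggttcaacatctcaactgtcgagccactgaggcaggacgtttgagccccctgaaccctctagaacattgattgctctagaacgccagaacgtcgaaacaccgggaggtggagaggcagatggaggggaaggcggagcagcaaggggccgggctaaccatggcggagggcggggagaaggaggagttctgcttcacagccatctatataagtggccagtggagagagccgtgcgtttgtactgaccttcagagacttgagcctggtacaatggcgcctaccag

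A match of these 5 letters describes the sequence and does not show that HIF binds there. Of the 33 measured genes, 32 had at least 1 such window, 47 windows in all, and Ndrg1 was without one. At least 1 match stood in 36 of the 47 windows (76.6%), against 14380 of all 32851 windows of the same length (43.8%). Counted by gene, 28 of 32 (87.5%) had a match in some window, against 46.7% of all genes, and Gpi1, Tpi1, Eno2 and Gbe1 had none. The windows of these genes were also richer in CpG, with a median of 21 CpG against 7 in all windows, and the part of CpG content in the share of matches was not tested.

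Across the 8 arrays the genes fell into several patterns rather than one. Gpi1, Slc2a1, Pgk1 and Aldoa were higher in EGM-MV within each cell type and also higher in podocytes within each medium. Of these, Pgk1 and Aldoa had a medium effect that was called in PECs and not in podocytes. Tpi1 was higher in EGM-MV in both cell types but lower in podocytes in both media. Slc16a3 was high in podocytes in both media, and Hif1a and Kdm3a were high in PECs. Ndrg1 and P4ha2 were moved by the medium in opposite directions in podocytes and PECs. The heat map shows every gene relative to its own mean, because probe sets of different genes cannot be set against each other in level.

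**Figure D1:**
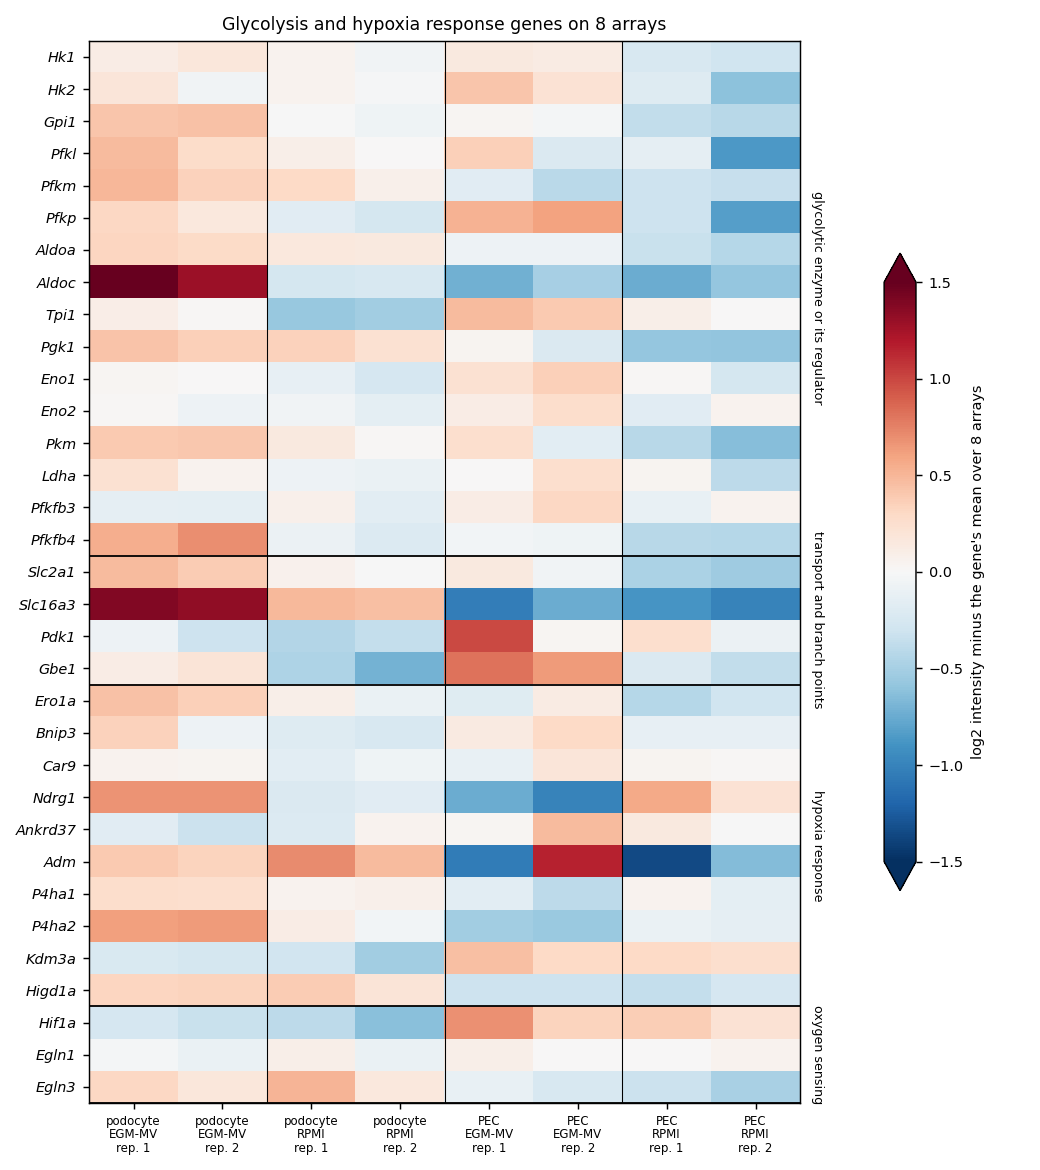
Log2 intensity of the 33 genes (rows, ordered by role) on the 8 arrays (columns, 2 replicates for each of 4 groups), each gene minus its own mean over the 8 arrays. Red is above and blue below that mean, and values past 1.5 take the end colours. Slc16a3 is red on all 4 podocyte arrays and blue on all 4 PEC arrays, Aldoc is red on the 2 podocyte arrays in EGM-MV only, and Adm differs most between replicates, in PECs in EGM-MV.

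The first comparison asks how the medium altered these genes. Averaged over podocytes and PECs, 16 of 33 genes were higher in EGM-MV than in RPMI and 0 were lower (limma, adjusted p below 0.05). Over all genes, 21.6% were called in this comparison, 12.8% as higher and 8.81% as lower. Among the 13255 genes with a mean of at least 6 in some group, which these genes resemble more closely in level, 20.7% were higher and 14.0% lower. The median difference of the 33 genes was 0.30 on the log2 scale, against -0.01 over all genes. Within the cell types, 4 of the 16 measured glycolytic enzymes and regulators were called as higher in podocytes and 9 in PECs. Over all genes, 7.7% were called as higher in podocytes and 7.64% in PECs. A difference between the medium effects of the cell types was called for 1 of the 16, Aldoc, with the larger effect in podocytes. The 16 genes called over both cell types comprised 11 of the 16 measured glycolytic enzymes and regulators, 3 of the 4 genes of transport and branch points, 2 of the 10 hypoxia response genes and 0 of the 3 oxygen sensing genes. All 16 glycolytic genes had a positive difference over both cell types, with a median of 0.34. Since every array holds the RNA of a whole culture and values are relative to the other genes, a shift in the share of cells and a shift in RNA per cell cannot be told apart.

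Tpi1 and Gpi1 were the trunk enzymes called in both cell types. Tpi1 interconverts the triose phosphates made by aldolase. Its log2 intensity was 11.79 and 11.71 in podocytes in EGM-MV, against 11.12 and 11.17 in podocytes in RPMI, and 12.16 and 12.07 in PECs in EGM-MV, against 11.77 and 11.69 in PECs in RPMI. Within each cell type both EGM-MV arrays lay above both RPMI arrays, by 0.61 ± 0.08 in podocytes (SE; adjusted p = 0.0027) and by 0.39 ± 0.08 in PECs (adjusted p = 0.0191). Gpi1, the isomerase that follows hexokinase, lay at 12.91 and 12.93 in podocytes in EGM-MV, against 12.49 and 12.43 in podocytes in RPMI, and at 12.53 and 12.47 in PECs in EGM-MV, against 12.12 and 12.08 in PECs in RPMI. The medium groups were again separate in both cell types, with differences of 0.46 ± 0.07 in podocytes and 0.40 ± 0.07 in PECs, or 1.37-fold and 1.32-fold.

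The importer and a regulator moved with them. Slc2a1 (GLUT1), the main glucose importer of most cultured cells, was measured at 11.56 and 11.48 in podocytes in EGM-MV, against 11.16 and 11.09 in podocytes in RPMI, and at 11.24 and 11.04 in PECs in EGM-MV, against 10.62 and 10.57 in PECs in RPMI. Within each cell type its groups did not overlap between media. Averaged over both cell types it was 1.38-fold higher in EGM-MV (log2 difference 0.47 ± 0.06, adjusted p = 0.0023). Pfkfb4, one of the bifunctional enzymes that set the level of fructose 2,6-bisphosphate, the activator of phosphofructokinase, lay at 6.94 and 7.11 in podocytes in EGM-MV, against 6.32 and 6.20 in podocytes in RPMI, and at 6.37 and 6.34 in PECs in EGM-MV, against 5.99 and 5.98 in PECs in RPMI. It rose by 0.77 ± 0.08 in podocytes. In PECs its RPMI mean was just below 6, so the difference of 0.37 ± 0.08 is given as at least 1.28-fold.

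Gbe1, the branching enzyme of glycogen synthesis, had the largest medium effect of the branch point genes in the average over both cell types. Its values were 8.63 and 8.70 in podocytes in EGM-MV, against 8.05 and 7.80 in podocytes in RPMI, and 9.32 and 9.15 in PECs in EGM-MV, against 8.29 and 8.14 in PECs in RPMI. No EGM-MV array overlapped an RPMI array of the same cell type. The difference was 0.74 ± 0.11 in podocytes and 1.02 ± 0.11 in PECs, which is 1.67-fold and 2.03-fold.

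**Figure D2:**
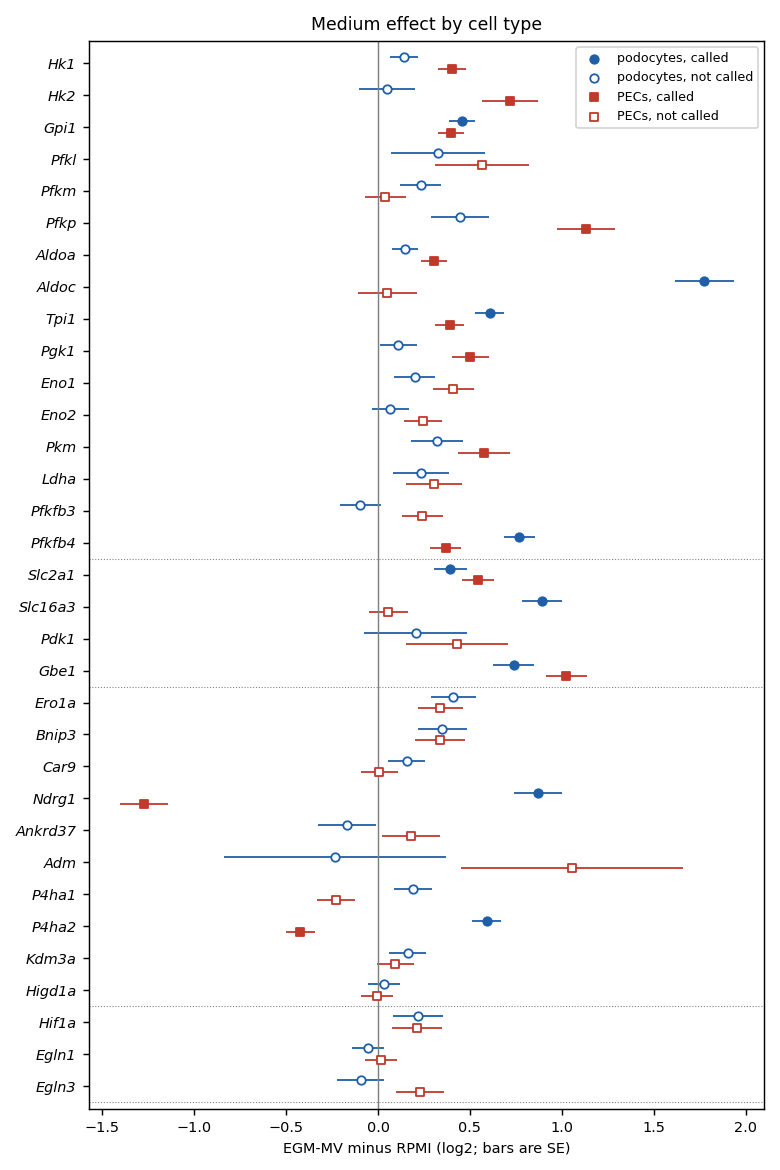
EGM-MV minus RPMI (x axis, log2) for the 33 genes (y axis, ordered by role as in the heat map) in podocytes (blue circles) and PECs (red squares), as fitted from 2 arrays per group, with bars for the SE. Filled symbols had an adjusted p below 0.05. Nearly all glycolytic genes lie right of 0 in both cell types, while Ndrg1 and P4ha2 lie right of 0 in podocytes and left of it in PECs.

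In podocytes, 9 of 33 genes passed as higher in EGM-MV and 0 as lower, against 13.7% of all genes called in either direction (7.7% higher, 5.99% lower) and 22.2% of those with a mean of at least 6. Besides Tpi1, Gpi1, Pfkfb4, Slc2a1 and Gbe1 these were Aldoc, Slc16a3, Ndrg1 and P4ha2, described below. In PECs, 11 were higher and 2 lower, against 12.3% of all genes (7.64% higher, 4.62% lower) and 19.7% of those with a mean of at least 6. Tpi1, Gpi1, Pfkfb4, Slc2a1 and Gbe1 were joined there by Hk1, Hk2, Pfkp, Aldoa, Pgk1 and Pkm among the genes that rose, and Ndrg1 and P4ha2 fell. At an unadjusted p below 0.05, 12 genes passed in podocytes and 17 in PECs, against 25.4% and 27.1% of all genes. Of the 33 differences, 28 in podocytes and 29 in PECs were positive, and the medians were 0.22 and 0.31.

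Pfkp, the platelet-type phosphofructokinase, had the largest medium effect of the trunk enzymes in PECs. It was measured at 8.33 and 8.18 in podocytes in EGM-MV, against 7.85 and 7.76 in podocytes in RPMI, and at 8.54 and 8.62 in PECs in EGM-MV, against 7.71 and 7.19 in PECs in RPMI. Groups were separate in both cell types, but only the PEC difference was called (1.13 ± 0.16, 2.19-fold, adjusted p = 0.0060), and that in podocytes was 0.45 ± 0.16 (adjusted p = 0.12). The difference between these effects did not pass the test (-0.69, adjusted p = 0.18). Hk2, the inducible hexokinase, had 7.55 and 7.32 in podocytes in EGM-MV, against 7.41 and 7.36 in podocytes in RPMI, and 7.78 and 7.59 in PECs in EGM-MV, against 7.18 and 6.75 in PECs in RPMI. Its podocyte groups overlapped and its PEC groups did not (0.72 ± 0.15 in PECs, 0.05 ± 0.15 in podocytes). The interaction of -0.67 was not called in the main fit, which had no culture block (adjusted p = 0.17). It was called when culture entered the fit as a fixed block (adjusted p = 0.028).

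Pkm, the muscle-type pyruvate kinase gene that makes the last glycolytic step, lay at 10.59 and 10.59 in podocytes in EGM-MV, against 10.34 and 10.21 in podocytes in RPMI, and at 10.45 and 10.04 in PECs in EGM-MV, against 9.77 and 9.56 in PECs in RPMI. Both EGM-MV arrays were higher in each cell type, by 0.58 ± 0.14 in PECs (called) and 0.32 ± 0.14 in podocytes. The podocyte effect was called with the culture block and not in the main fit. For Pgk1, the first enzyme of the trunk to make ATP, the values were 8.96 and 8.89 in podocytes in EGM-MV, against 8.87 and 8.76 in podocytes in RPMI, and 8.58 and 8.31 in PECs in EGM-MV, against 7.95 and 7.94 in PECs in RPMI. Its medium effect was 0.50 ± 0.10 in PECs and 0.11 ± 0.10 in podocytes, and the difference between them was not called. Hk1 and Aldoa had smaller called differences in PECs, of 0.40 and 0.30. Of the medium comparisons in the main fit, Eno1 was called only in the average over both cell types (0.30 ± 0.08). The same held for Ero1a, the oxidase that helps form disulfide bonds in the endoplasmic reticulum (0.37 ± 0.09), and Bnip3, a mitophagy receptor (0.34 ± 0.10).

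These medium calls rested on few arrays and varied with the test. In PECs, the methods' t-test, without pooling of variances across genes, called only Gpi1 and Aldoa. It did not call Slc2a1 (adjusted p = 0.068), Pfkp (0.079), Ndrg1 (0.054) or Gbe1 (0.054). A limma fit of the 4 PEC arrays alone called only Ndrg1 and Gbe1. Of the 9 calls in podocytes, Aldoc, Tpi1, Pfkfb4, Slc16a3 and P4ha2 held whichever array was left out, and Slc2a1, Gpi1, Ndrg1 and Gbe1 lost theirs at least once (adjusted p up to 0.199). Of the 13 in PECs, Slc2a1, Pfkp, Ndrg1 and Gbe1 held and the other 9 did not (adjusted p up to 0.147), with 5 genes called without PEC EGM-MV replicate 1, 5 without PEC RPMI replicate 2, and 2 when the 4 PEC arrays were fitted alone. Over both cell types, Slc2a1, Gpi1, Pfkp, Aldoc, Tpi1, Pfkfb4, Slc16a3 and Gbe1 held, and Hk1, Hk2, Aldoa, Pgk1, Eno1, Pkm, Ero1a and Bnip3 did not (adjusted p up to 0.144).

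The next comparison asks whether podocytes and PECs responded to the medium alike. Ndrg1, P4ha2, Aldoc and Slc16a3 did not: their medium effect was higher in podocytes than in PECs. These were the 4 called genes of 33, with 0 called in the other direction, against 2.99% of all genes in either direction and 1.48% in this one (4.9% in either direction among genes with a mean of at least 6). At an unadjusted p below 0.05, 10 of the 33 passed, against 16.0% of all genes.

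Ndrg1 (ENSMUSG00000005125_at, chr15:66929318-66969641 in GRCm38.p6), a stress-response gene that hypoxia induces in many cell types, had the largest interaction. It lay at 10.81 and 10.82 in podocytes in EGM-MV, against 9.93 and 9.97 in podocytes in RPMI, and at 9.40 and 9.14 in PECs in EGM-MV, against 10.71 and 10.37 in PECs in RPMI. EGM-MV was thus the high medium in podocytes and the low one in PECs, with no overlap in either. The medium effect was 0.87 ± 0.13 in podocytes and -1.27 ± 0.13 in PECs, and the difference between these, 2.14 ± 0.19, had an adjusted p of 0.0028. Averaged over both cell types the effect was -0.20, which was not called in the main fit (adjusted p = 0.18). It was called with culture as a fixed block (adjusted p = 0.032). The order of the cell types turned with the medium: podocytes were 2.93-fold above PECs in EGM-MV and 1.51-fold below them in RPMI.

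P4ha2 (ENSMUSG00000018906_at, chr11:54100924-54131668) encodes an alpha subunit of the collagen prolyl 4-hydroxylase, the enzyme that stabilises the collagen triple helix. Its values were 8.50 and 8.52 in podocytes in EGM-MV, against 8.0 and 7.84 in podocytes in RPMI, and 7.36 and 7.33 in PECs in EGM-MV, against 7.79 and 7.75 in PECs in RPMI. The same crossing appeared, with separate groups and a smaller size: 0.59 ± 0.08 in podocytes, -0.42 ± 0.08 in PECs and a difference of 1.01 ± 0.11 (adjusted p = 0.0061). In RPMI the cell types differed by 0.15, which was not called. Its paralog P4ha1 had 11.62 and 11.60 in podocytes in EGM-MV, against 11.41 and 11.43 in podocytes in RPMI, and 11.19 and 10.96 in PECs in EGM-MV, against 11.40 and 11.21 in PECs in RPMI. The signs were the same as for P4ha2 (0.19 in podocytes, -0.23 in PECs), but neither effect nor the difference of 0.42 was called.

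Aldoc (ENSMUSG00000017390_at, chr11:78323073-78327781), an aldolase isoform best known from brain, was above 6 in a single group. It lay at 7.83 and 7.34 in podocytes in EGM-MV, against 5.80 and 5.82 in podocytes in RPMI, and at 5.33 and 5.55 in PECs in EGM-MV, against 5.31 and 5.47 in PECs in RPMI. With the dim groups set to 6, podocytes in EGM-MV were at least 3.0-fold above podocytes in RPMI and at least 3.0-fold above PECs in EGM-MV. The fitted medium effect, which rests in part on values below 6, was 1.78 ± 0.16 in podocytes and 0.05 ± 0.16 in PECs, a difference of 1.72 (adjusted p = 0.0113). Aldoa, the ubiquitous isoform, was measured at 13.28 and 13.25 in podocytes in EGM-MV, against 13.13 and 13.11 in podocytes in RPMI, and at 12.89 and 12.88 in PECs in EGM-MV, against 12.62 and 12.54 in PECs in RPMI. Its medium effects of 0.15 in podocytes and 0.30 in PECs were not called as different.

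Slc16a3 (ENSMUSG00000025161_at, chr11:120948484-120959000) encodes MCT4, the monocarboxylate transporter through which glycolytic cells export lactate. Its values were 9.0 and 8.93 in podocytes in EGM-MV, against 8.09 and 8.05 in podocytes in RPMI, and 6.57 and 6.87 in PECs in EGM-MV, against 6.72 and 6.61 in PECs in RPMI. The podocyte groups were separate and the PEC groups overlapped. EGM-MV raised it 1.86-fold in podocytes (0.89 ± 0.11, adjusted p = 0.0021), the effect in PECs was 0.06 ± 0.11, and the difference was 0.84 ± 0.15 (adjusted p = 0.0326).

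Ndrg1 and P4ha2 kept the interaction call whichever array was left out. Aldoc lost it without podocyte RPMI replicate 1 (1.71, adjusted p = 0.068) or replicate 2 (1.74, adjusted p = 0.061), and Slc16a3 without either podocyte EGM-MV array (0.80 and 0.87), either podocyte RPMI array (0.86 and 0.82) or PEC RPMI replicate 1 (0.78), with adjusted p up to 0.164, and when each array was centred on its median (0.76, adjusted p = 0.0507). The methods' t-test, without pooling of variances across genes, called 0 of the 4 (adjusted p = 0.081 to 0.194).

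**Figure D3:**
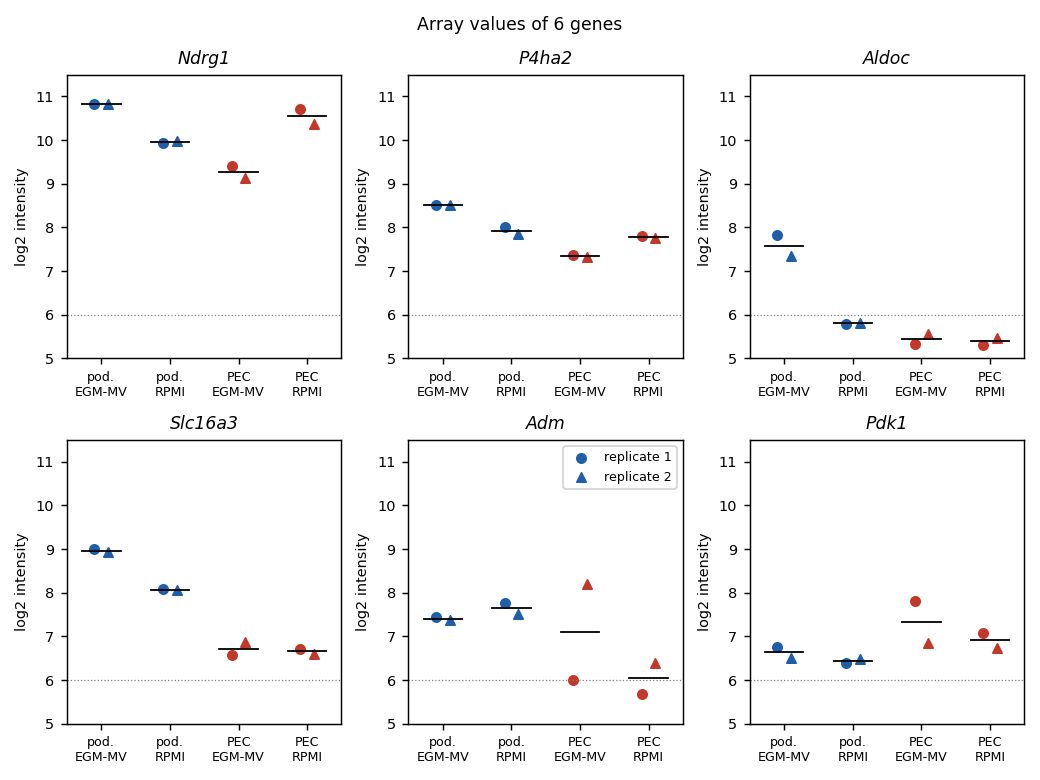
Log2 intensity (y axis) of the 4 genes whose medium effect differed between cell types, and of Adm and Pdk1, on the single arrays of podocytes (blue) and PECs (red) in EGM-MV and RPMI (x axis). Circles are replicate 1, triangles replicate 2, bars the mean of 2 arrays, and the dotted line is the level of 6. Ndrg1 and P4ha2 are high in EGM-MV in podocytes and high in RPMI in PECs, and the PEC arrays of Adm in EGM-MV lie at 6.0 and 8.20.

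The remaining comparison asks which genes differed between podocytes and PECs. In EGM-MV, 14 of 33 genes were higher in podocytes and 6 lower, against 32.2% of all genes called (16.6% higher, 15.5% lower) and 49.1% of the genes with a mean of at least 6. In RPMI, 11 were higher and 4 lower, against 28.4% of all genes (15.5% higher, 12.8% lower) and 44.5% of those with a mean of at least 6. The share of the 33 genes called was 60.6% in EGM-MV and 45.5% in RPMI, so in RPMI it was close to that of all genes of similar level. Averaged over both media, 15 were higher and 5 lower, against 41.4% of all genes (20.2% higher, 21.2% lower). The share called, 60.6%, was close to the 60.2% of genes with a mean of at least 6. By direction, 45.5% of the 33 genes were higher and 15.2% lower, against 32.5% and 27.7% of the genes with a mean of at least 6. With each culture entered once, as its mean over both media, 19 of these 20 calls were kept and that of Pdk1 was not (adjusted p = 0.093). The median difference was 0.31 in EGM-MV and 0.27 in RPMI, against -0.05 over all genes in both media, but it moved with single arrays: it was 0.01 in EGM-MV without PEC EGM-MV replicate 1, and 0.13 in RPMI without PEC RPMI replicate 2.

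Of the called genes Slc16a3 stood furthest apart, with all 4 podocyte arrays (8.05 to 9.0) above all 4 PEC arrays (6.57 to 6.87). It was 4.74-fold higher in podocytes in EGM-MV (2.25 ± 0.11, adjusted p = 1.5e-05) and 2.66-fold higher in RPMI (1.41 ± 0.11). In RPMI the difference for Adm was larger (1.60) but was not called. The importer Slc2a1 was higher in podocytes too, by 0.38 ± 0.09 in EGM-MV and 0.53 ± 0.09 in RPMI.

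Along the trunk the differences ran both ways. Gpi1 (0.42 in EGM-MV, 0.36 in RPMI), Aldoa (0.38 and 0.54) and Pgk1 (0.48 and 0.87) were higher in podocytes in both media. Tpi1, which stands between aldolase and Pgk1 in the pathway, was lower in podocytes by 0.37 ± 0.08 in EGM-MV (log2 difference -0.37) and by 0.59 ± 0.08 in RPMI (-0.59). For Tpi1 and Gpi1 the difference between cell types was about as large as that between media, so that podocytes in EGM-MV overlapped PECs in RPMI for Tpi1, and podocytes in RPMI overlapped PECs in EGM-MV for Gpi1. Hk1 (0.27) and Pkm (0.61) were called in RPMI only, and Pfkfb4 in both media (0.67 in EGM-MV, and 0.27 in RPMI, where PECs were below 6 and the fold is at least 1.20). The Pfkfb4 call in RPMI held in none of the 8 fits that left out an array, and was lost with culture as a random block (adjusted p = 0.058). Eno1, Eno2, Ldha and Pfkl were called in neither medium.

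The phosphofructokinase isoforms differed from each other. Pfkm, the muscle type, lay at 8.66 and 8.51 in podocytes in EGM-MV, 8.46 and 8.24 in podocytes in RPMI, 7.99 and 7.76 in PECs in EGM-MV and 7.85 and 7.82 in PECs in RPMI. All podocyte arrays were above all PEC arrays, by 0.71 ± 0.11 in EGM-MV and 0.51 ± 0.11 in RPMI, and the medium effect was not called. Pfkp showed the opposite division, with a called medium effect in PECs and no called difference between cell types (-0.33 in EGM-MV, 0.35 in RPMI). Pfkl, the liver type, had 8.70 and 8.50 in podocytes in EGM-MV, 8.31 and 8.23 in podocytes in RPMI, 8.58 and 8.0 in PECs in EGM-MV and 8.09 and 7.36 in PECs in RPMI. Replicate 2 of the PECs was the lower one in both media, the SE was 0.26, and no comparison was called. With culture as a block, the medium effect on Pfkl was called in podocytes (0.33), in PECs (0.56) and over both (0.45).

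**Figure D4:**
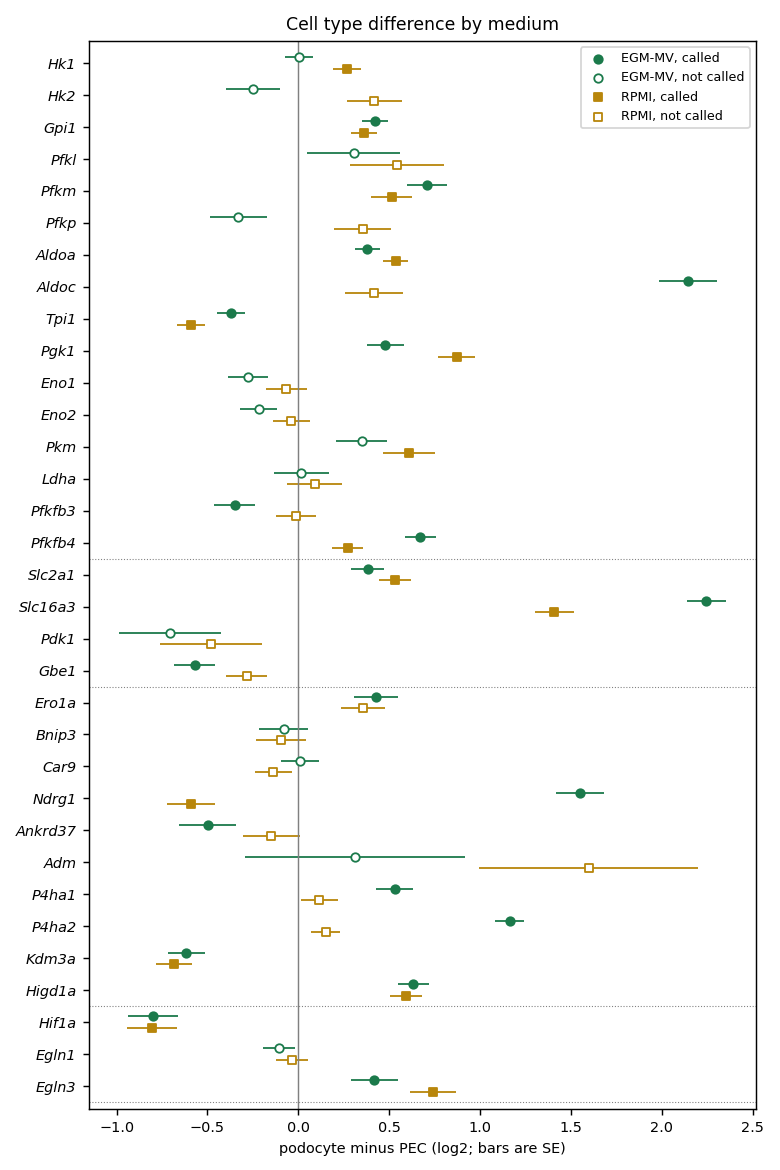
Podocyte minus PEC (x axis, log2) for the 33 genes (y axis, ordered by role) in EGM-MV (green circles) and in RPMI (ochre squares), as fitted from 2 arrays per group, with bars for the SE. Filled symbols had an adjusted p below 0.05. Slc16a3 lies far right in both media, Aldoc and P4ha2 far right in EGM-MV, Ndrg1 on opposite sides of 0, and Hif1a and Kdm3a left of 0 in both.

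For the other isoform pairs, the calls were as follows. Hk1, the widely expressed hexokinase, ranged from 8.58 to 9.05 over the 8 arrays and Hk2 from 6.75 to 7.78, each lowest in PECs in RPMI, and only the Hk1 difference in RPMI was called between cell types. Aldoa was higher in podocytes in both media, and Aldoc was called in EGM-MV alone, where PECs were below 6 and the difference is at least 3.0-fold. Eno1 and Eno2, the ubiquitous and the neuronal enolase, were called in no comparison of cell types. Pfkfb3 was lower in podocytes in EGM-MV (-0.35 ± 0.11, adjusted p = 0.047) while Pfkfb4 was higher, so the bifunctional enzymes differed in opposite directions there. The Pfkfb3 call was kept in 8 of 15 alternatives. It was lost with each array centred on its median (adjusted p = 0.060), after repeated quantile normalization (0.058) and with the methods' t-test (0.126). P4ha1 was called in EGM-MV (0.53 ± 0.10) and not in RPMI (0.11), as was P4ha2 (1.16 ± 0.08 and 0.15).

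The oxygen sensing genes gave one lower, one higher and one uncalled. Hif1a, the regulated subunit of HIF, was measured at 10.51 and 10.43 in podocytes in EGM-MV, 10.37 and 10.13 in podocytes in RPMI, 11.44 and 11.09 in PECs in EGM-MV and 11.13 and 10.97 in PECs in RPMI. Every podocyte array was below every PEC array, and the difference was -0.80 ± 0.14 in each medium (adjusted p = 0.0033 in EGM-MV and 0.0038 in RPMI). HIF activity is set largely by the stability of this protein, which arrays do not measure. Egln3, a HIF prolyl hydroxylase that is itself a HIF target, lay at 6.32 and 6.18 in podocytes in EGM-MV, 6.52 and 6.17 in podocytes in RPMI, 5.89 and 5.77 in PECs in EGM-MV and 5.69 and 5.52 in PECs in RPMI. All podocyte arrays were higher, but the PEC means were below 6, so podocytes were at least 1.19-fold higher in EGM-MV and at least 1.27-fold higher in RPMI. Egln1, the main oxygen sensor among the hydroxylases, stayed between 9.08 and 9.26 on all 8 arrays and was called in no comparison.

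Among the hypoxia response genes, Kdm3a and Higd1a differed between cell types in both media and in opposite directions. Kdm3a, a histone H3 lysine demethylase, had 8.02 and 7.99 in podocytes in EGM-MV, 7.96 and 7.72 in podocytes in RPMI, 8.70 and 8.54 in PECs in EGM-MV and 8.55 and 8.50 in PECs in RPMI, without overlap (-0.62 ± 0.10 in EGM-MV, -0.68 ± 0.10 in RPMI). Higd1a, a small protein of the mitochondrial inner membrane, had 7.02 and 7.03 in podocytes in EGM-MV, 7.09 and 6.90 in podocytes in RPMI, 6.39 and 6.39 in PECs in EGM-MV and 6.35 and 6.45 in PECs in RPMI, again without overlap (0.63 ± 0.09 and 0.59 ± 0.09). Its medium effects were 0.03 and -0.01. Ero1a was higher in podocytes in EGM-MV (0.43 ± 0.12), and Ankrd37 was lower there (-0.50 ± 0.16). The Ankrd37 difference was -0.28 without PEC EGM-MV replicate 2 (adjusted p = 0.213) and its call was lost with culture as a random block (adjusted p = 0.059). Bnip3 differed by -0.08 in EGM-MV and -0.09 in RPMI, and neither difference was called.

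Gbe1 was lower in podocytes in EGM-MV (-0.57 ± 0.11) and not called in RPMI (-0.28). Pdk1, the kinase that keeps pyruvate out of the mitochondrial pyruvate dehydrogenase reaction, had 6.75 and 6.51 in podocytes in EGM-MV, 6.38 and 6.47 in podocytes in RPMI, 7.82 and 6.86 in PECs in EGM-MV and 7.08 and 6.73 in PECs in RPMI. Podocytes were the lower cells within each medium, yet the difference was called only over both media (-0.59 ± 0.20, adjusted p = 0.045), and that call was lost on leaving out either podocyte array in EGM-MV, either in RPMI, or PEC RPMI replicate 1 (-0.51 to -0.65, adjusted p up to 0.135). It was lost also with culture as a random block (adjusted p = 0.057) and with 1 mean per culture (adjusted p = 0.093).

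Between cell types, 12 of the 20 calls in EGM-MV and 10 of the 15 in RPMI held whichever array was left out. Those lost at least once were Slc2a1, Tpi1, Pgk1, Pfkfb3, Ero1a, Ankrd37, Egln3 and Gbe1 in EGM-MV (adjusted p up to 0.218) and Hk1, Pfkm, Pkm, Pfkfb4 and Ndrg1 in RPMI (up to 0.207).

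In all, 27 of the 33 genes were called in at least 1 of the 7 comparisons, against 50.6% of all genes and 73.5% of those with a mean of at least 6. Those called in none were Pfkl, Eno2, Ldha, Car9, Egln1 and Adm. Ldha, the subunit of lactate dehydrogenase that favours lactate formation, ranged from 10.74 to 11.39, with both extremes in PECs. Its medium effect was 0.23 in podocytes and 0.31 in PECs, with an SE of 0.15. Eno2 ranged from 6.76 to 7.19, and Car9, the membrane carbonic anhydrase often used as a hypoxia marker, from 5.09 to 5.42, where no change could be read.

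Adm, the vasodilator peptide adrenomedullin, differed most between replicates. It had 7.44 and 7.38 in podocytes in EGM-MV, 7.76 and 7.52 in podocytes in RPMI, 6.0 and 8.20 in PECs in EGM-MV and 5.69 and 6.39 in PECs in RPMI. Its PEC cultures in EGM-MV stood on either side of all podocyte arrays, and the SE of its group differences was 0.60. With culture as a block, which removes differences between cultures, the medium effect in PECs was called (1.05, adjusted p = 0.043). Over the 33 genes together, the SD of the difference between replicates in EGM-MV was 0.48 in PECs and 0.13 in podocytes, and Adm carried much of the PEC value, which was 0.29 without it, against 0.25 in PECs and 0.12 in podocytes over all genes. In RPMI it was 0.25 in PECs and 0.13 in podocytes for the 33 genes.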

How the data were processed

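Podocytes and PECs were compared within and over media, and media within and over cell types, on the 8 arrays. The authors made the deposited log2 values in JMP Genomics from a custom probe set definition with 1 value per Ensembl gene, by RMA background correction, quantile normalization and removal of outlying measurements. The sources used here gave no version of these tools. Because quantile normalization equalises the arrays, changes are relative to the other genes. A second deposited table held the same log2 values for 22215 genes under the labelled replicates.

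Group means were fitted to the log2 values of all 22237 genes at once with limma 3.58.1 in R 4.3.3 (lmFit, eBayes), with 4 residual degrees of freedom. The interaction subtracts the EGM-MV effect of PECs from that of podocytes. P-values were two-sided and Benjamini-Hochberg adjusted over all genes within each of the 7 comparisons, and a gene was called below 0.05. The study's methods and the column names give each culture both media, so replicate number paired the media within a cell type. The difference between replicates correlated between media across genes at r = 0.53 in PECs and 0.07 in podocytes (genes are not independent). The p-values of comparisons over both media count the arrays of a culture separately.

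The gene list, roles and marker lists were chosen with earlier results of these data known, and symbols were those given with the list. The naming rule accounted for all 34 listed genes, named those called in each comparison, gave array values for up to 8 with the largest difference, and described the isoform families whether called or not. Lists of further pathway genes and cell type markers were not tested, since 0 of their symbols could be tied to an Ensembl ID. A group mean below 6 was treated as a bound at 6. The number of arrays limits the precision. Alternatives changed the test, the block, the arrays in the fit, the scaling, the filter on dim genes and the moderation. The fit was tested on simulated data.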

Additional observations from a re-analysis of the deposited data

Results flagged for a closer look

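The response to EGM-MV differed between podocytes and PECs, by the interaction test, for 4 of the 33 genes, against 2.99% of all genes and 4.9% of those with a mean of at least 6. The podocyte effect exceeded the PEC effect by 2.14 for Ndrg1 and by 1.01 for P4ha2, both with opposite signs in the 2 cell types, and by 1.72 for Aldoc and 0.84 for Slc16a3, where the podocyte effect alone was called (log2 scale). Aldoc lay below 6 in 3 of the 4 groups, so its value rests in part on dim measurements.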

How the results depend on the processing

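Of the 97 calls of single genes over the 7 comparisons, recomputed under the alternatives that applied to each (1477 values), 1277 kept their call, 200 fell short of the threshold and 0 changed sign. The methods' t-test does not pool variances across genes. It left 2 calls for the medium in PECs (Gpi1 and Aldoa), 10 for the medium over both cell types and 0 for the interaction. With limma these were 13, 16 and 4. A fit of the 4 PEC arrays alone left 2, Gbe1 (higher) and Ndrg1 (lower). Leaving out 1 array at a time gave 13 to 21 calls for podocytes against PECs in EGM-MV (13 without podocyte EGM-MV replicate 1), 10 to 17 in RPMI and 19 to 22 over both media. For the medium it gave 6 to 10 calls in podocytes, 5 to 12 in PECs and 9 to 16 over both cell types (9 without podocyte EGM-MV replicate 1 or 2, 10 without podocyte RPMI replicate 2), and for the interaction 2 to 5 (2 without podocyte RPMI replicate 1 or 2). The cause of these changes beyond the loss of an array was not tested. With culture as a fixed replicate block, the medium was called for 12 genes in podocytes, 17 in PECs and 19 over both cell types and the interaction for 5. It kept all 42 calls it could estimate, and the calls it added that are not given above were Ero1a in podocytes and in PECs, Eno1 in PECs and Hif1a over both cell types. Culture as a random replicate block gave 19, 14, 19, 10, 14, 16 and 4 calls over the comparisons in EGM-MV, in RPMI, over both media, in podocytes, in PECs, over both cell types and for the interaction. All other alternatives stayed within 1.5 times the counts given. With 2 cultures per cell type, differences between cell types near the replicate spread, as for Adm and Pfkl, were not resolved. That of Pdk1 was called only over both media, and this call was lost with 1 mean per culture. The medium effects on Pfkl, and on Adm in PECs, were called with culture as a fixed block, as given above.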
